A study of Homo sapiens with 4 samples.

Results

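RNA polymerase III transcribes short structured RNAs, among them transfer RNAs, 5S ribosomal RNA, U6 and the 7SL RNA of the signal recognition particle. It does not find its promoters alone. TFIIIC binds sequences inside tRNA genes, TFIIIB is then placed upstream of the start site, and TFIIIB recruits the polymerase. Its output sets how many ribosomes and tRNAs a growing cell can make, and it is often raised in cancer cells. The question here was which genes of this machinery carry reads in the vesicles of prostate cancer (PCa) cells, and on how many reads each value rests.

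The 9 genes described were given by name and matched by Ensembl identifier. They encode the polymerase subunits POLR3A, POLR3B, POLR3C, POLR3D, POLR3E and POLR3G, the TFIIIB subunits BRF1 and BDP1, and the TFIIIC subunit GTF3C1. They were 9 of 58051 genes in the count files and of 19629 protein-coding genes. RNA was taken from the extracellular vesicles (EVs) of PC3 cells, an epithelial PCa line derived from a bone metastasis, kept without treatment in medium with fetal bovine serum, which was exchanged for exosome-free serum while vesicles were collected. Vesicles were isolated with a membrane affinity kit and size-exclusion columns, and PC3 is a single line with no other line or non-vesicle RNA beside it here. Of the 4 libraries of the series, the 2 stranded total RNA libraries, biological replicates 1 and 2, hold these genes. There was 1 condition, so no test between groups applies, and a count per library cannot tell more vesicles from more RNA per vesicle.

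Depth limits what these libraries can show. Of 19563744 reads in replicate 1 and 22042233 in replicate 2, 489170 and 475942 were counted on genes, and levels are given as CPM, reads scaled to a total of 1000000 reads on genes. At this depth 1 read equals 2.04 and 2.10 CPM, and 3 reads, taken as the smallest level that can be shown, equal 6.13 and 6.30 CPM. The 95% Wilson intervals below cover counting error only. Counts were even for 70.8% of the protein-coding genes with reads in replicate 1 and 68.0% in replicate 2, and in the range from 1 to 20 reads for 74.3% and 70.9%. Of the 7 polymerase III genes with reads, 6 had an even count in replicate 1 and 4 in replicate 2, and the cause was not tested. If each pair of reads stood for a single fragment the intervals would be wider: for BRF1 in replicate 1 the width was 96.5 CPM with the reads as deposited and 137 CPM with the reads halved. Among marker genes of the line, KRT8 had 966 and 1088 reads, KRT18 94 and 87, KRT19 36 and 78 and VIM 130 and 87. EPCAM had only 2 and 26, the first below the floor. The blood and liver genes PTPRC, HBB, HBA1 and ALB had none. The vesicle marker CD9 had no read, whereas CD81 had 18 and 16, CD63 5 and 29, PDCD6IP 8 and 14 and TSG101 26 and 0.

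**Figure D1:**
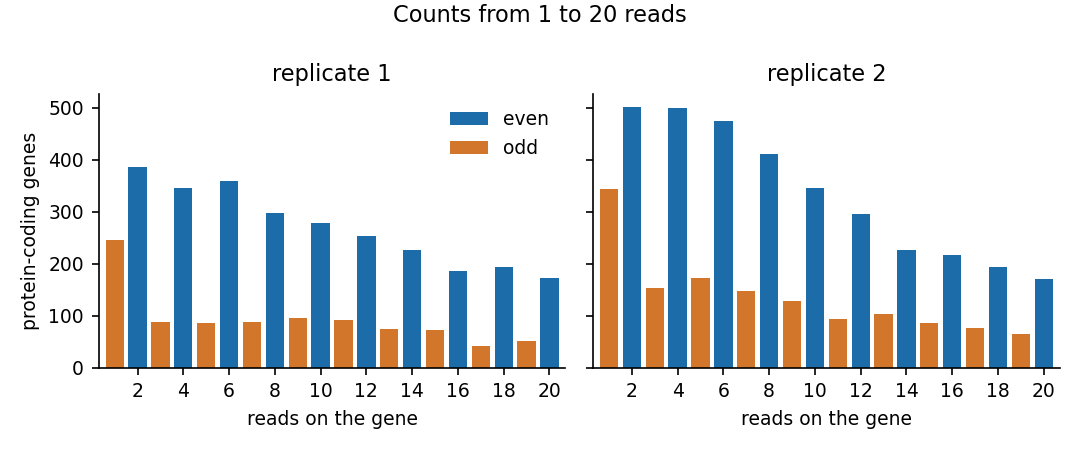
Number of protein-coding genes (y axis) with each count from 1 to 20 reads (x axis) in the 2 total RNA libraries, even counts in blue and odd counts in orange. In both libraries every even count from 2 to 20 is more frequent than the odd counts next to it in the range shown.

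Reads of the polymerase III genes were spread unevenly. At least 1 read was counted in both replicates on 7 of the 9 genes, against 21.9% of all protein-coding genes, and at least 10 reads in both on 6 of the 9, against 11.6%. POLR3B and BDP1 had no read in either library. The shares of all protein-coding genes are not matched for length, with a median of 4471 bases of merged exon against 11562 for the 9. Among protein-coding genes with at least 10000 such bases, 39.1% had no read in either library. The share of these long genes with a read in both libraries was not computed, so 7 of the 9 has no background matched for length. Together the 9 genes held 313 reads in replicate 1 and 289 in replicate 2, or 624 CPM ± 23.1 (SD, n = 2). BRF1 alone took 46.0% of these reads in replicate 1 and 36.7% in replicate 2, and POLR3A 20.4% and 15.6%. The sum of the genes therefore changed little between libraries, while single genes did not all do so.

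The stretches of coding exon that lie opposite an exon of a long non-coding RNA (lncRNA) on the other strand are shown first, because the reading of a count depends on them: reads of such a stretch belong to one gene or the other only by their strand. POLR3B and POLR3E have such a stretch outside untranslated sequence. Both sequences are from the GRCh38 reference, 5′ to 3′ on the strand of the gene, with the shared coding exon in capitals and 25 bases of intron on either side in lower case. For POLR3B it is exon 24 of 28 in the canonical transcript, 104 bases at chr12:106496055-106496158, all within a 234-base exon of the lncRNA ENSG00000257545. For POLR3E it is exon 20 of 21, 126 bases at chr16:22332060-22332185, within a 1513-base exon of the lncRNA ENSG00000286808.
POLR3B: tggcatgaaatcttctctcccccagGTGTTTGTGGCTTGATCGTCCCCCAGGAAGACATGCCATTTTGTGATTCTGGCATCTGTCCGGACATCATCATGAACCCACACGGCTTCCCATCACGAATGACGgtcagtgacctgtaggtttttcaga
POLR3E: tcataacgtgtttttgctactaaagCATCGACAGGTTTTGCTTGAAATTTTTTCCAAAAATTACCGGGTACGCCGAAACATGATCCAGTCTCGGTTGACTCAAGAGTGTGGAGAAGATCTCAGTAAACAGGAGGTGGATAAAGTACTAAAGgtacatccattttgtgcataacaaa

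POLR3A and POLR3B are the largest subunits of the enzyme and together form its active centre. POLR3A (ENSG00000148606, chromosome 10, 77953148 to 78029522, minus strand) held 64 reads in replicate 1 and 45 in replicate 2, which are 131 CPM (95% Wilson interval 102 to 167) and 94.5 CPM (70.7 to 127). Its intervals overlap, and the mean was 113 CPM ± 25.7 (SD, n = 2). POLR3B (ENSG00000013503, chromosome 12, 106357748 to 106510198, plus strand) had 0 reads in both, which is below the floor of 3 reads. Per kb of merged exon, POLR3A was at 8.28 and 5.98 CPM per kb and the floor for POLR3B was at 1.29 and 1.32. Per kb, POLR3A stood 6.44-fold above this floor in replicate 1 and 4.53-fold in replicate 2, without its counting error. The floor is no upper limit for POLR3B. For 0 reads the upper Wilson limit was 7.85 and 8.07 CPM, or 15.7 and 16.1 CPM with the reads halved. The subunits of the core are present once each in the enzyme. Reads on their genes were not alike in these vesicles, with no non-vesicle RNA to set them against. Reads that fit several places were set aside by the counting. Of the 31-base words in the exons of POLR3B, 0.339% occur more than once in the genome, against 6.10% for POLR3A. Whether reads of either gene were set aside in this way was not tested.

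POLR3C and POLR3G belong to a subcomplex of the polymerase that takes part in opening the promoter. POLR3C (ENSG00000186141, chromosome 1, 145824053 to 145844402, plus strand) had 30 and 17 reads, or 61.3 CPM (43.0 to 87.5) and 35.7 CPM (22.3 to 57.2). POLR3G (ENSG00000113356, chromosome 5, 90471748 to 90514557, plus strand) had 19 and 28 reads, or 38.8 CPM (24.9 to 60.7) and 58.8 CPM (40.7 to 85.0). Both genes had reads in both libraries, the first with more in replicate 1 and the second with more in replicate 2, and for each the intervals of the libraries overlap. POLR3GL, the paralogue that replaces POLR3G in the enzyme of many differentiated cells, had 0 reads in both libraries. Its merged exons hold 1811 bases, of which 382 are shared with another gene on the same strand, where reads cannot be assigned to either.

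POLR3D and POLR3E form a pair of subunits that take part in initiation and in termination. POLR3D (ENSG00000168495, chromosome 8, 22245133 to 22254601, plus strand) had 26 and 22 reads, or 53.2 and 46.2 CPM, with a mean of 49.7 CPM ± 4.90 (SD, n = 2). POLR3E (ENSG00000058600, chromosome 16, 22297375 to 22335101, plus strand) had 28 and 22 reads, or 57.2 and 46.2 CPM, with a mean of 51.7 CPM ± 7.79 (SD, n = 2). These had the smallest difference between libraries among the 7 genes with reads.

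BRF1 and BDP1 bind the polymerase III promoter together with the TATA-binding protein as TFIIIB. BRF1 (ENSG00000185024, chromosome 14, 105209286 to 105315589, minus strand) had the most reads of the 9 genes, 144 in replicate 1 and 106 in replicate 2. These are 294 CPM (250.1 to 347) and 223 CPM (184 to 269), with a mean of 259 CPM ± 50.7 (SD, n = 2). BDP1 (ENSG00000145734, chromosome 5, 71455651 to 71567820, plus strand) had 0 reads in both. Its merged exons hold 12400 bases and its canonical transcript 11037, so it is a long target. Of the protein-coding genes with at least 10000 bases of merged exon, 39.1% also had no read in either library. Per kb of merged exon BRF1 was at 22.7 and 17.2 CPM per kb, and the floor for BDP1 was at 0.495 and 0.508. Per kb, BRF1 stood 45.9-fold above this floor in replicate 1 and 33.8-fold in replicate 2, without its counting error. The floor is no upper limit for BDP1 either, since the upper Wilson limit at 0 reads was 7.85 and 8.07 CPM.

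GTF3C1 encodes the largest subunit of TFIIIC, which contacts the internal promoter of tRNA genes. GTF3C1 (ENSG00000077235, chromosome 16, 27459555 to 27549913, minus strand) carried 2 reads in replicate 1 but 49 in replicate 2. These are 4.09 CPM (1.12 to 14.9) and 103 CPM (77.9 to 136), and their intervals do not overlap. The mean of 53.5 CPM ± 69.9 (SD, n = 2) has an SD above the mean, and the value in replicate 1 is below the floor of 3 reads. The detection of GTF3C1 in both libraries rests on those 2 reads, and with at least 3 reads required in both 6 of the 9 genes were detected.

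**Figure D2:**
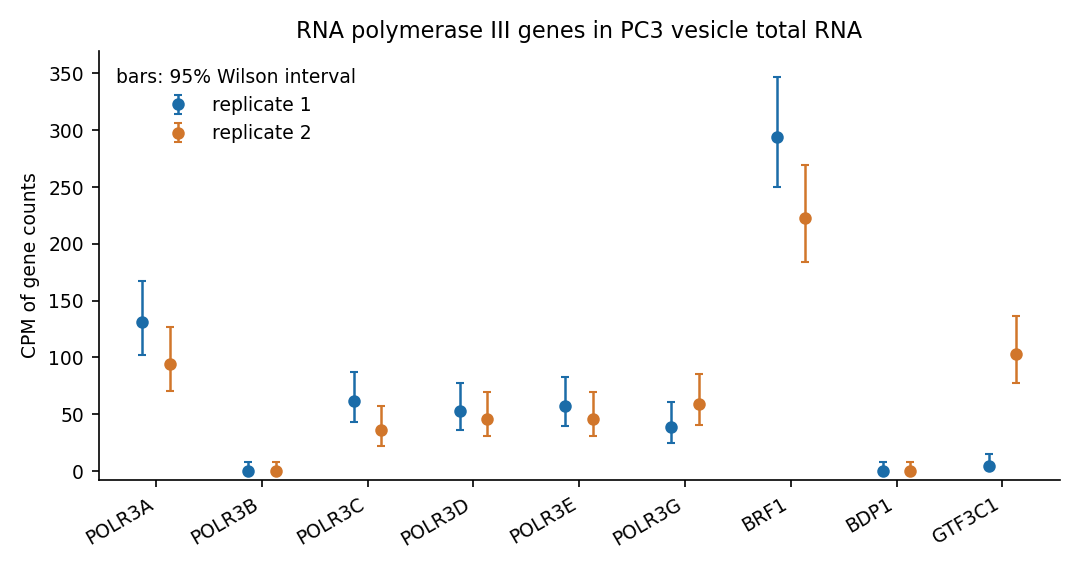
Level of the 9 polymerase III genes (x axis) in CPM of gene counts (y axis) in each total RNA library, with 95% Wilson intervals that cover counting error only. BRF1 was at 294 and 223 CPM, GTF3C1 at 4.09 and 103 CPM, and POLR3B and BDP1 had no read. CPM is not divided by length, so heights compare libraries and not genes.

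Levels can be set beside each other only per length. Per kb of merged exon, the union of all annotated exons of a gene, the order was BRF1 at 19.9 CPM per kb ± 3.91 (SD, n = 2), POLR3G at 12.1 ± 3.51, POLR3D at 8.90 ± 0.877, POLR3A at 7.13 ± 1.62, POLR3E at 5.45 ± 0.821, GTF3C1 at 4.63 ± 6.05 and POLR3C at 4.02 ± 1.501. BRF1 stood above POLR3G in both libraries, with 22.7 and 17.2 against 9.65 and 14.6 CPM per kb. In replicate 2 the Wilson intervals of BRF1 and POLR3G, taken per kb, overlap. POLR3G and POLR3D differed by less than the SD of POLR3G, and GTF3C1 differed from each of POLR3D, POLR3A, POLR3E and POLR3C by less than its own SD. The order depends on the length chosen. The merged exons of BRF1 hold 12962 bases but its canonical transcript 3671, and on the canonical length BRF1 was at 70.4 CPM per kb ± 13.8 (SD, n = 2). POLR3A was then next at 17.05 ± 3.88 and POLR3D, at 9.31 ± 0.918, was behind POLR3G, POLR3E and POLR3C. By the mean, BRF1 was highest and GTF3C1, at 7.55 ± 9.86, lowest of the 7 genes with reads on the canonical length, whereas POLR3C was lowest on merged exons. The SD of GTF3C1 is above its mean on both lengths, so its place in either order is not settled. On merged exons it was at 0.354 CPM per kb in replicate 1 and 8.90 in replicate 2.

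**Figure D3:**
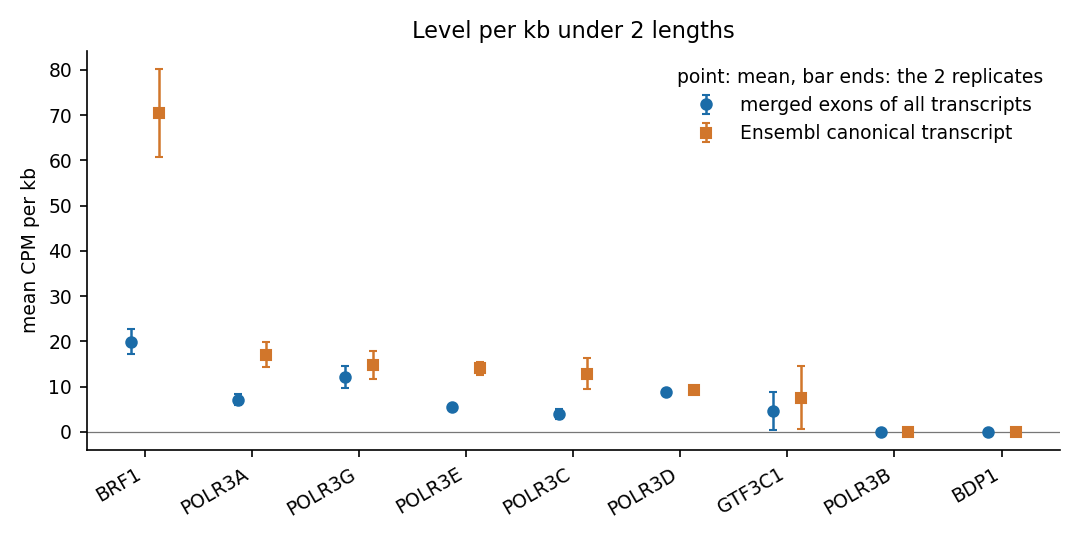
Mean level in CPM per kb (y axis) of the 9 genes (x axis) with the length of all merged exons in blue and of the Ensembl canonical transcript in orange; bar ends are the values of the 2 replicates. BRF1 is highest on both lengths, at 19.9 and 70.4 CPM per kb, and POLR3A moves from 7.13 to 17.05.

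Against all protein-coding genes the 7 genes with reads stood high by CPM. By mean CPM all 7 lay within the first 1963 ranks, which hold 10% of the protein-coding genes, with BRF1 at rank 178 and POLR3A at rank 555. The lowest of the 7, POLR3C, was at rank 1685.5, with ties averaged. Most protein-coding genes had no read, 11333 of 19629 in either library, and among those with a read in at least 1 library the upper 10% held 830 genes and only BRF1 and POLR3A of the 9. Long genes collect more reads, and the 9 genes have a median of 11562 bases of merged exon against 4471 for all protein-coding genes. Ranked by CPM per kb of merged exon, 3 of the 9 were in the upper 10%, BRF1 at rank 754, POLR3G at rank 1359 and POLR3D at rank 1901. With replicate 2 left out 5 of the 9 were in the upper 10% by CPM, without POLR3G and GTF3C1, and with replicate 1 left out 6 were, without POLR3C.

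Between the libraries most of these genes moved little. The log2 ratio of replicate 2 over replicate 1, on the log2(CPM + 1) scale, was -0.46 for POLR3A, -0.76 for POLR3C, -0.20 for POLR3D, -0.30 for POLR3E, 0.59 for POLR3G and -0.40 for BRF1. For GTF3C1 it was 4.35. The median absolute log2 ratio was 0.46 over these 7 genes and 1.68 over the 5764 protein-coding genes that reached 10 reads in the sum of the libraries, where the median ratio itself was 0.01. Differences at least as large as that of BRF1 were found in 83.9% of those genes, and as large as that of GTF3C1 in 31.1%. Those genes were not matched to the 7 by read count. They include genes with 10 reads in sum, where counting error spreads ratios more than at the 144 and 106 reads of BRF1. A comparison with genes of like count was not made. The value of GTF3C1 rests on 2 reads in replicate 1, below the floor.

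The exons of 7 of the 9 genes overlap an exon of another gene on the opposite strand by at least 1 base, against 36.3% of protein-coding genes. BDP1 and GTF3C1 have no such overlap. The library kit keeps the strand, but the strand setting of the counting was not given in the sources used here. Detection in both replicates was reached by 31.9% of protein-coding genes with an overlap and by 16.2% of those without, and the part of the overlap in this was not tested. POLR3B was the gene whose opposite partner carried reads while it had none. The lncRNA ENSG00000257545, which covers its exon 24 as printed above, had 43 reads in replicate 1 and 38 in replicate 2. Only 104 of the 2419 exon bases of this lncRNA lie opposite POLR3B. Whether any of its reads fall there cannot be read from counts per gene and was not tested. The partner of POLR3E, which lies opposite 751 of its exon bases, is not among the genes counted in the files.

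BRF1 has a pair of partners. PACS2 lies opposite 417 of its exon bases and had 69 and 75 reads. BTBD6, which lies opposite 635 bases, had 0 reads in replicate 1 and 84 in replicate 2. The overlaps make up 8.12% of the merged exon bases of BRF1, and the coding part of its overlap with PACS2 is 67 bases. BRF1 had more reads than either partner in both libraries. POLR3G shares 260 bases with MBLAC2, which had 0 and 7 reads, and POLR3C shares 43 bases with RNF115, which had 0 and 9. The pseudogene H2AZP5, opposite 352 bases of POLR3A, and the lncRNA PIWIL2-DT, opposite 26 bases of POLR3D, had no read. In all, the polymerase III gene had more reads in both libraries than its partner in 6 of 7 pairs that could be compared, and fewer in 1. Among the 20 such pairs of the other polymerase III genes listed further on, the gene had more in both libraries in 3 and the partner in 7. These are reads not divided by length, so they do not order the levels of a gene and its partner. BTBD6 has 2400 merged exon bases against 12962 for BRF1, H2AZP5 382 against 15800 for POLR3A, and PIWIL2-DT 515 against 5583 for POLR3D. For POLR3A, POLR3C and POLR3D the overlap was between 0.356% and 2.23% of the merged exon bases. How many reads of BRF1, POLR3E or POLR3G fall in the shared bases cannot be read from counts per gene and was not tested.

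**Figure D4:**
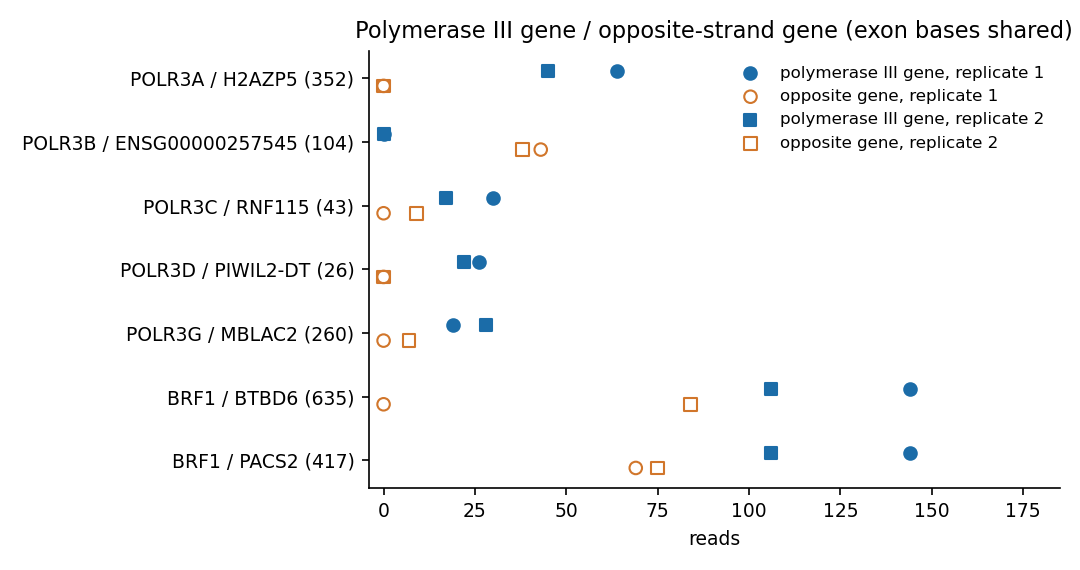
Reads (x axis) on each polymerase III gene (filled blue) and on the gene with exons opposite to it (open orange) in replicate 1 (circles) and replicate 2 (squares), with the number of shared exon bases in brackets. POLR3B has no read and its partner 43 and 38, and in the other 6 pairs the polymerase III gene has more reads in both libraries. Reads are not divided by length, so positions do not order the levels of a gene and its partner.

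The list of other genes of the pathway held 5 further polymerase III subunits, 7 subunits shared with polymerase I or II and 15 further factors, and 12 of these 27 had at least 1 read in both libraries. By group these were 2 of 5, 3 of 7 and 7 of 15, beside the same background of 21.9%. Among the factors, MAF1, the repressor of polymerase III, had 20 and 40 reads, or 25.9 CPM per kb ± 12.6 (SD, n = 2). SNAPC4, which binds the promoters of U6 and other snRNA genes, had 36 and 24 reads, and GTF3A, the factor of 5S rRNA genes, had 7 and 32. Of the TFIIIC subunits beside GTF3C1, GTF3C2 had 18 and 15 reads, GTF3C4 18 and 14, and GTF3C5 6 and 2. GTF3C3 had 0 and 10 and GTF3C6 0 and 29, so that 4 of the 6 TFIIIC subunits, GTF3C1 included, had a read in both libraries. BRF2, which takes the place of BRF1 at U6-type promoters, had 11 and 0 reads. Per kb of merged exon, BRF2 was at 8.28 CPM per kb in replicate 1 against 22.7 for BRF1. In replicate 2 BRF2 had no read and BRF1 was at 17.2 CPM per kb. Of the 2717 merged exon bases of BRF2, 1629 lie opposite ADGRA2, which had 20 and 0 reads. TBP, the TATA-binding protein and partner of BRF1 and BDP1 in TFIIIB, had 6 and 0, and SSB, the La protein that binds the 3′ end of polymerase III transcripts, had 2 and 4. On the opposite strand, METTL5 had 41 and 19 reads across from SSB, and GTF3C2-AS1 118 and 99 across from GTF3C2. The part of such overlaps in these counts was not tested.

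Subunits shared between polymerases were led by POLR2L, a small subunit of all 3 enzymes, with 120 and 143 reads or 242 CPM per kb ± 34.6 (SD, n = 2). Its merged exons hold 1126 bases, and 257 of these lie opposite CD151, which had 32 and 21 reads. POLR2L was therefore above BRF1 per kb in both libraries, with 218 and 267 CPM per kb against 22.7 and 17.2. POLR2E had 6 and 42 reads and POLR2H 24 and 8, whereas POLR1C, POLR2K, POLR1D and POLR2F had at most 7 reads in any library. CRCP, a subunit of polymerase III, had 8 and 19 reads, and POLR3K 0 and 16.

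The genes of the other polymerases were counted in the same way. Of 12 polymerase I genes 4 had a read in both libraries and 4 were in the upper 10% by mean CPM. UBTF, the factor that organises ribosomal DNA, had 155 and 126 reads, or 41.1 CPM per kb ± 5.21 (SD, n = 2), and POLR1A, the counterpart of POLR3A, had 64 and 4. Of 8 polymerase II genes 2 had a read in both and 2 were in the upper 10%, and POLR2A, the other counterpart of POLR3A, had 40 and 16 reads. POLR3A, POLR1A and POLR2A had 8.28, 6.64 and 9.79 CPM per kb in replicate 1 and 5.98, 0.427 and 4.02 in replicate 2, so that their order changed between libraries. No test of a difference between these lists was made, since the 9 genes were chosen with earlier results of these data known.

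**Figure D5:**
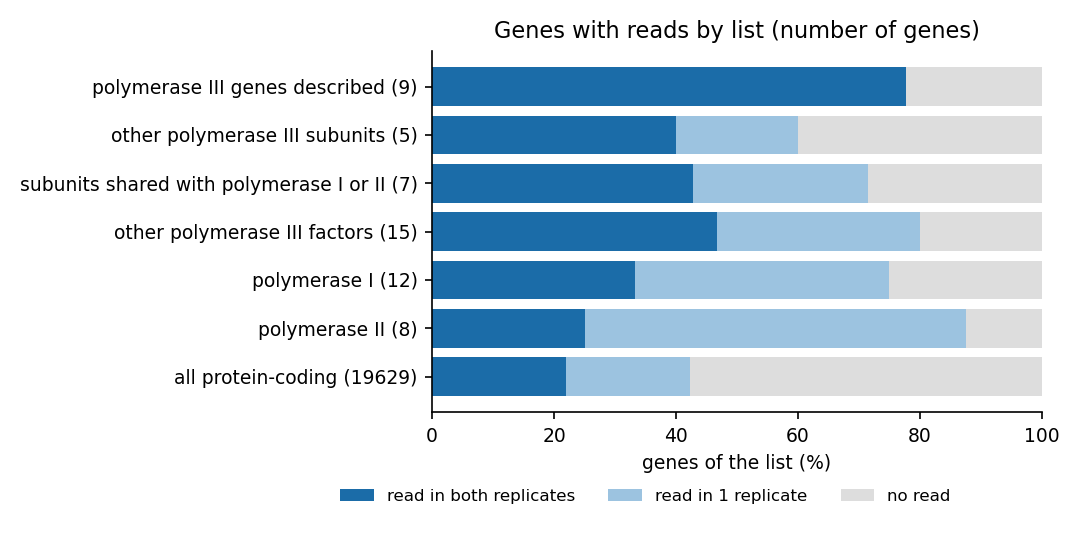
Share of the genes of each list (x axis, %) with a read in both total RNA libraries (dark blue), in 1 library (light blue) and in neither (grey), with the number of genes in brackets. The shares in dark blue are 7 of 9 for the polymerase III genes described, 4 of 12 for polymerase I, 2 of 8 for polymerase II and 21.9% for all protein-coding genes.

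Products of polymerase III were also in the files. RN7SL2, a gene of 7SL RNA, had 83154 and 69876 reads and RN7SL3 23251 and 36549, beside 313 and 289 on the 9 genes of the machinery together. The other 10 of 12 products listed, RN7SL1, RN7SK, RMRP, RPPH1, RNY1, RNY3, RNY4, VTRNA1-1, VTRNA1-2 and VTRNA1-3, had no read. Of all reads, 45.5% in replicate 1 and 48.1% in replicate 2 fitted several places and were set aside. A count of 0 here therefore does not show that the RNA was absent.

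The protein-coding genes outside these lists with values most like those of the 6 genes with at least 10 reads in both libraries were sought by the distance in log2(CPM + 1) over the 2 libraries. Close to POLR3A was SLBP with 65 and 47 reads, and nearest to BRF1 were ZNF771 with 141 and 98 and MLLT1 with 156 and 112. DDX41 had the same 30 and 17 reads as POLR3C, CDK13 the same 28 and 22 as POLR3E, NBEAL2 the same 19 and 28 as POLR3G, and FGD1 and PATJ the same 26 and 22 as POLR3D. With 2 libraries of 1 condition such a likeness is one of level only.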

How the data were processed

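Stranded total RNA libraries of vesicles from PC3 cells were sequenced in 2 biological replicates. Per the labels, mapping was to GRCh38 and HTSeq made the deposited files, which hold raw counts for each Ensembl identifier with no normalisation. The study names Cutadapt, SHRiMP and SAMtools for trimming and mapping, without saying which served the long RNA, and versions, strand setting and annotation release were not given in the sources used here. The replicates follow the sample titles, and the title of replicate 2 carries the same EX1 label as replicate 1 although its description points to its own file. Of all reads, 2.50% and 2.16% were counted on genes, and the 5 summary lines that name no gene were left out of the library totals.

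Counts were scaled to CPM. GENCODE release 44 (GRCh38) gave gene types, exons, coding sequence and overlaps. It matched 56948 of 58051 identifiers and may differ from the release counted. A gene was detected with at least 1 read in both replicates. Exon words of 31 bases were counted over the primary chromosomes. No test across genes was made, and the ranking and overlap steps were tested on simulated data. The software was Python 3.11.15 (numpy 2.4.6, pandas 2.3.3, scipy 1.17.1, pysam 0.24.0, numba 0.67.0, matplotlib 3.10.9), and edgeR 4.0.16 under R 4.3.3 for TMM factors.

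The members, lists and rules were chosen with earlier results of these data known. The genes named are the 9 members, genes of the lists and genes opposite either. Also named are the 2 nearest in level to each member with at least 10 reads in both. Values of some genes that these rules name are not reported here. The small RNA libraries hold none of these genes and were not used.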

Additional observations from a re-analysis of the deposited data

How the results depend on the processing

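No paired analysis was possible because the total RNA libraries form 1 group and the small RNA libraries measure other RNAs. Detection of 7 of the 9 genes came to 6 with at least 3 reads, 10 reads or 10 CPM in both replicates and 7 with a read in either, and was 7 with either replicate left out. In the upper 10% by mean CPM there were 7, but 3 when ranked per kb of merged exon, 2 against genes with a read in either replicate, 7 with TMM scaling, and from 5 to 6 with a replicate left out. Of the 27 other polymerase III genes 12 were detected, 20 with a read in either replicate and 6 with at least 10 reads in both, and 16 with either replicate left out. The summed level of 624 CPM was 1057 CPM with protein-coding counts as the library total, 1107 CPM without the 10 genes of highest count, and from 607 to 640 CPM with a replicate left out. With protein-coding partners only, 3 of the 9 genes had an opposite-strand overlap in place of 7. No log2 ratio between replicates changed sign under other pseudocounts or TMM scaling. Of the values of single genes and of the background 23 moved and 60 did not, judged for levels by the SD between replicates and for log2 ratios by sign, with the halved reads and the changed background counted as moved. The canonical length and the halved reads were chosen after the data were seen.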
